A study of Homo sapiens with 18 samples.

Results

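Differentiation was followed in the 2 SH-SY5Y lines that carried a variant ZNHIT3 construct, C14R and a deletion, by setting their day 18 libraries against their day 0 libraries with the construct as a factor. The members are 12 of the 18 libraries of the series: 3 of C14R at day 0, 3 of C14R at day 18, 3 of the deletion at day 0 and 3 of the deletion at day 18. The 6 libraries of the wild-type (WT) construct were left out of the fit and are used in 1 comparison at the end. SH-SY5Y is an established human neuroblastoma line of sympathetic type. Per the labels, lentiviral plasmids made from FUGW delivered ZNHIT3, and RNA was depleted of ribosomal RNA before sequencing.

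Per the labels, cells were infected the day after plating, and the titles give the day of each library. Cells were kept in medium with 15% fetal bovine serum, and 48 hours after infection the medium was replaced by a serum-free neuronal one. It held all-trans retinoic acid at 10 µM, dibutyryl cyclic AMP at 2 mM, KCl at 20 mM and BDNF at 50 ng/ml, and was kept for 18 days. The 2 lines share the medium, the vector and the infected parent line, and the labels name no change to the cells' own ZNHIT3 gene. The label of the deleted stretch runs 251-254 for replicate 1, but 251-255 for replicate 2 and 251-256 for replicate 3, and the titles of these libraries call the group depleted. Nothing in the labels says that the 3 libraries of a group are separate cultures, so the p-values measure the spread between these libraries, which may be technical. Serum, added factors and time all change between day 0 and day 18 and cannot be told apart.

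Retinoic acid enters the nucleus and binds RAR receptors, which sit on response elements with their RXR partners. Binding switches on, among others, the CYP26 enzymes that break retinoic acid down. Raised cyclic AMP acts through the factor CREB at cyclic AMP response elements, and BDNF acts through the receptor NTRK2. Neuroblastoma cells given such factors leave the cell cycle and grow neurites. ZNHIT3 is a zinc-finger protein that takes part in the assembly of box C/D small nucleolar ribonucleoproteins (snoRNPs), the particles that guide modification of ribosomal RNA.

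Expression is given as the deposited FPKM, which corrects for transcript length and for the size of the library. A difference is day 18 minus day 0 on the log2(FPKM + 1) scale, which makes the change of weakly expressed genes look smaller than it is, with its standard error (SE) and a p-value from limma adjusted by the Benjamini-Hochberg method over all genes tested. The first principal component held 87.2% of the variance of the 12 libraries and separated the days. The second held 3.24% and set C14R replicate 1 of day 18, at 25.4, apart from the other 11 libraries, which lay between -8.98 and 7.98. Small RNA genes took 55.1% to 79.5% of the summed FPKM at day 0 and 31.5% to 55.5% at day 18, with the lowest share in that same library. The deposited values carry no counts, and the steps of low values put the day 0 libraries at 59% to 84.7% and the day 18 libraries at 81.8% to 99.3% of the depth of the deepest library of the series. The part of depth and of small RNA in the day effect was not tested beyond the other scalings reported in the closing section.

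ZNHIT3 is the delivered gene, and its value sums delivered and endogenous transcripts. The series has no library without a construct, so the level of ZNHIT3 cannot show how much was delivered. In C14R it stood at 419, 432 and 421 FPKM at day 0 and at 600, 756 and 604 FPKM at day 18. In the deletion line it stood at 306, 310 and 292 FPKM at day 0 and at 298, 313 and 294 FPKM at day 18. All C14R libraries of day 18 lay above all those of day 0, while the days overlapped in the deletion line. The log2 difference was 0.61 (SE 0.07, n = 3 against 3, limma adjusted p = 6.1e-06) in C14R and -0.00 (adjusted p = 0.96) in the deletion line. An exact two-sided permutation test gave p = 0.1 in C14R, the smallest that 20 relabelings allow, and p = 1 in the deletion line. The difference between the lines, 0.62 with a 95% interval from 0.40 to 0.84, did not pass the threshold of 0.05 over all genes (limma adjusted p = 0.18). The gene lies at chr17:36486629-36499310 on the forward strand of GRCh38 (GENCODE 29) and overlaps MYO19 on the other strand.

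Most of the transcriptome differed between the days in both lines. Of 13775 genes with a mean of at least 1 FPKM, 5716 rose (41.5%) and 5254 fell (38.1%) on the mean of the 2 lines, together 10970 (79.6%). With a log2 difference of at least 1 as well, 1017 rose (7.38%) and 923 fell (6.7%). In C14R 9874 genes passed (71.7%), in the deletion line 9912 (72%), and 8992 (65.3%) passed in both with the same sign. For 8480 genes (61.6%) the 6 libraries of day 18 and the 6 of day 0 did not overlap and the mean effect passed. Because so many genes passed, a count in a gene group is read below against the shares of 41.5% and 38.1% and against the median log2 difference of 0.02 over all genes tested. Without C14R replicate 1 of day 18 the mean effect passed for 81.2% of the genes tested. With small RNA genes left out and the rest rescaled, the median over all genes moved to 0.20 and the share of rises among the genes called from 52.1% to 67.2%.

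**Figure D1:**
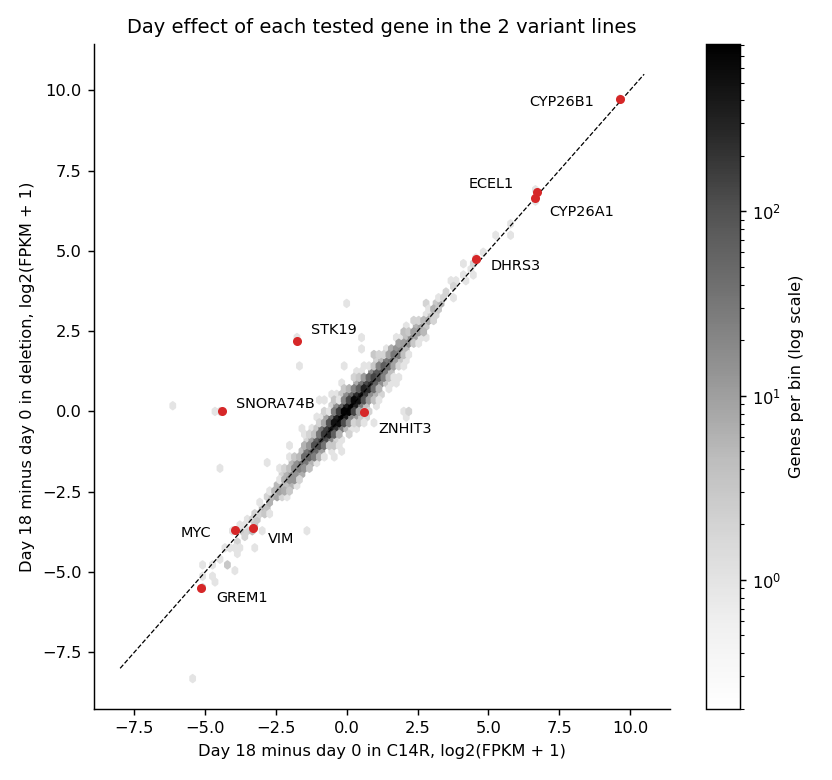
Log2 difference between day 18 and day 0 in C14R (x axis) and in the deletion line (y axis), both on the log2(FPKM + 1) scale, for 13775 genes binned in hexagons whose grey shade is the number of genes on a log scale. The dashed line marks equal differences, and red points mark 10 named genes: CYP26B1 lies at 9.64 and 9.73, whereas STK19 lies at -1.76 and 2.19, away from the line.

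Genes of the retinoic acid pathway held 3 of the 12 largest rises, CYP26B1, CYP26A1 and DHRS3. Of 28 genes fixed for this pathway 19 were tested, and of these 12 rose and 4 fell, with a median log2 difference of 0.63. Sequences upstream of the start sites of CYP26A1, a retinoic acid hydroxylase, and RARB, a retinoic acid receptor, are shown because they were the only 2 of the 24 list members with a RefSeq promoter (250 bases before to 50 after the start, GRCh38.p14) that held a match to the retinoic acid response element with 5 bases between its half-sites (DR5), searched on both strands. The match is in capitals, and the lines are read on the forward strand.
CYP26A1: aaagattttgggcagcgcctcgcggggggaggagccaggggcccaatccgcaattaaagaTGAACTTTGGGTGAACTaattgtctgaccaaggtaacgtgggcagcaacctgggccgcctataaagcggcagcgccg
RARB: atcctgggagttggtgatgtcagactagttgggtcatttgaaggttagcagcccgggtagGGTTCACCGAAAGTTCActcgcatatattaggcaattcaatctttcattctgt
The first is chr10:93073743-93073879 and the second chr3:25428150-25428262. Among all 27305 genes with a promoter in the table, 0.106% held this match. A match is a description of the letters and not evidence of binding.

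CYP26B1, the other main retinoic acid hydroxylase of these cells, had the largest rise of all genes tested. It lay between 0 and 0.0592 FPKM (median 0.0226) in the 6 day 0 libraries and between 734 and 924 FPKM (median 855) in the 6 day 18 libraries, a log2 difference of 9.69 (SE 0.04, limma adjusted p = 6.6e-20). CYP26A1 was listed at 0 in 4 day 0 libraries and at 0.0342 and 0.131 FPKM in the other 2, and stood at 76.4, 119 and 107 FPKM in C14R and 94.4, 111 and 103 FPKM in the deletion line at day 18. DHRS3, which reduces retinal back to retinol, rose from a range of 4.94 to 6.53 FPKM to one of 138 to 180 FPKM (log2 difference 4.64, SE 0.06). For each of these genes the days were far apart and the lines overlapped at day 18. CRABP2, which carries retinoic acid to the nucleus, rose from a median of 154 FPKM to 2244 FPKM, and CRABP1 from 41.5 to 228 FPKM. RARB rose from between 6.62 and 8.48 FPKM to between 69 and 73.7 FPKM (log2 difference 3.02, SE 0.05), and the orphan receptor NR2F1 from a median of 10.8 to 86.6 FPKM.

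Of the 4 genes that fell RDH10, which oxidizes retinol, had the largest fall, from a median of 16.8 to 5.17 FPKM (log2 difference -1.54, SE 0.06, limma adjusted p = 7.7e-11). STRA6, a receptor for the retinol carrier in blood, fell from 17.2 to 7.99 FPKM, and RXRA, a partner of the RARs, from 3.7 to 1.35 FPKM. RARG, another retinoic acid receptor, fell from 11.5 to 8.52 FPKM. ALDH1A3, which makes retinoic acid from retinal, rose from 6.26 to 9.72 FPKM. Of the HOX genes, patterning factors that respond to retinoic acid in embryos, 12 of 39 were tested, 11 rose and 0 fell, with a median log2 difference of 1.04. HOXD9 rose from a range of 14.4 to 17.5 FPKM to one of 38.4 to 49 FPKM, and HOXD8 from a median of 31 to 67.5 FPKM.

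**Figure D2:**
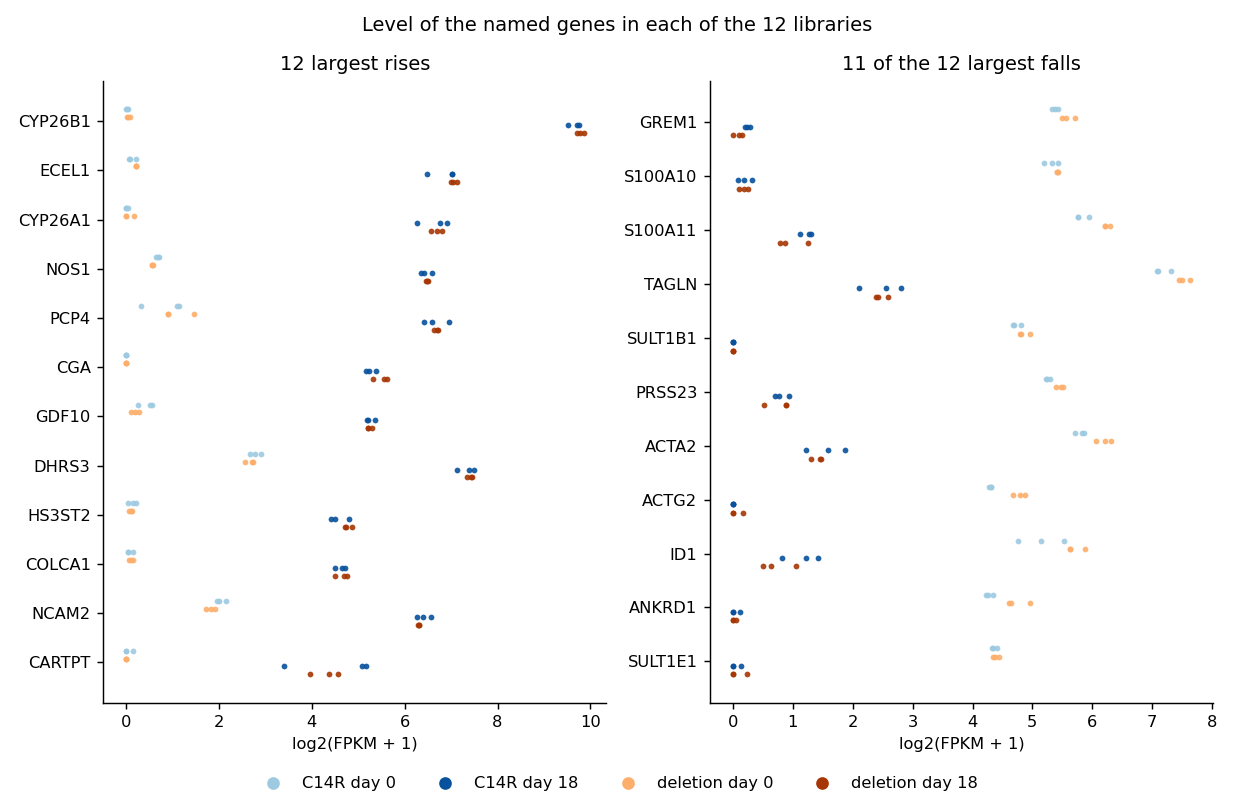
Level, as log2(FPKM + 1), of the 12 genes with the largest rises (left) and 11 of the 12 with the largest falls (right) in each of the 12 libraries; each point is 1 library and colour gives the line and day. In each gene shown the 6 libraries of day 18 lie apart from the 6 of day 0, for CYP26B1 at 734 to 924 FPKM against at most 0.0592 FPKM.

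Outside this pathway, 9 genes were among the 12 largest rises. CGA, the common alpha subunit of the glycoprotein hormones, was listed at 0 in all 6 day 0 libraries and stood at 34.9, 36.6 and 40.9 FPKM in C14R and at 48.3, 39 and 46.2 FPKM in the deletion line at day 18 (limma adjusted p = 7.3e-16). CARTPT, the precursor of the CART neuropeptide, was listed at 0 in 5 day 0 libraries and reached 35, 9.56 and 33 FPKM in C14R and 22.6, 14.5 and 19.8 FPKM in the deletion line (adjusted p = 1.9e-09). CARTPT varied between replicates more than the other genes of this group, and for neither gene is a fold given against libraries at 0. HS3ST2, a heparan sulfate sulfotransferase of neurons, rose from at most 0.16 FPKM to between 20.4 and 28.3 FPKM (log2 difference 4.56, SE 0.07).

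These 3 are the genes among 11 of the 12 largest rises with a RefSeq promoter whose window held the cyclic AMP response element TGACGTCA on either strand. The share was 2.25% among all 27305 genes with a promoter, and 3.96% among the tested genes. Their upstream sequences, chosen after the values were seen, are shown with the match in capitals, each on its gene's own strand.
CGA: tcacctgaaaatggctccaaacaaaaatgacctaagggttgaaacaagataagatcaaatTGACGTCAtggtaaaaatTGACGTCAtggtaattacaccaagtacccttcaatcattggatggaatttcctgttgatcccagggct
CARTPT: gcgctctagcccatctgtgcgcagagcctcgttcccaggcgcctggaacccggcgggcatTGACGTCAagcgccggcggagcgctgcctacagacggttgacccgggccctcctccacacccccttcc
HS3ST2: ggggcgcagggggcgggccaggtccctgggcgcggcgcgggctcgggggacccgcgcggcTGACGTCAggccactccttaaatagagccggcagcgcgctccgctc
CGA holds the element 2 times. The windows are chr6:87095163-87095308 on the reverse strand, chr5:71719072-71719199 on the forward strand and chr16:22814056-22814161 on the forward strand. In the dense-core granule list described below, 4 of 15 promoters held the element, those of CHGA, PCSK1, SST and VGF. VGF rose and CHGA did not pass the test, while PCSK1 and SST were below the level for testing.

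ECEL1, a membrane peptidase of neurons, lay between 0.0481 and 0.163 FPKM at day 0 and at 87.9, 129 and 129 FPKM in C14R and 138, 130 and 126 FPKM in the deletion line at day 18 (log2 difference 6.78, SE 0.08). NOS1, neuronal nitric oxide synthase, rose from at most 0.623 FPKM to between 80.8 and 95.1 FPKM (5.85, SE 0.04). PCP4, a calmodulin-binding protein, rose from 0.24 to 1.75 FPKM at day 0 to between 84.1 and 123 FPKM. None of these 3 genes had a day 18 library near its day 0 range. GDF10, a secreted factor of the TGF-beta family, had a log2 difference of 4.94 (SE 0.06), and NCAM2, a neural adhesion molecule, one of 4.43 (SE 0.05). COLCA1, at 4.55 (SE 0.06), overlaps COLCA2 on the other strand, and the sources used here do not say whether strand was used in counting.

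Genes of neuronal structure and release rose almost throughout. Of 26 genes for the neuronal cytoskeleton and axon growth 25 rose and 0 fell (median log2 difference 1.29), and of 31 tested genes for synaptic vesicles and release 30 rose and 0 fell (1.30). MAPT, which encodes tau, rose from between 5.75 and 6.9 FPKM to between 55 and 62 FPKM (log2 difference 3.09, SE 0.04, limma adjusted p = 3.1e-15). KIF5A, a neuronal kinesin, rose from a median of 11.3 to 81.1 FPKM, and GAP43, a growth cone protein, from 43.7 to 268 FPKM. The 6 libraries of each day were separate for these 3 genes. NEFH, the heavy neurofilament subunit, was at a median of 22.1 FPKM at day 0 and 22.8 FPKM at day 18 and did not pass (adjusted p = 0.27), while the light subunit NEFL rose from 61.1 to 225 FPKM. Among release genes SYT5, a synaptotagmin, rose from between 3.56 and 5.16 FPKM to between 31.9 and 39.7 FPKM (log2 difference 2.86, SE 0.06). SNAP25, a membrane fusion protein, rose from a median of 85.6 to 306 FPKM, and SYP, synaptophysin, from 14.6 to 81.3 FPKM. SYT7 did not pass, at 10.7 and 10.6 FPKM (adjusted p = 0.33).

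Cargo and processing genes of dense-core granules, the organelles that store peptides and amines, moved likewise. Of 15 tested members 14 rose and 0 fell (median log2 difference 1.59). CHGB, a granin, rose from between 78.5 and 105 FPKM to between 919 and 1075 FPKM (log2 difference 3.45, SE 0.06, limma adjusted p = 1.2e-14). The related granin CHGA lay between 94.4 and 141 FPKM at day 0 and between 103 and 116 FPKM at day 18, with overlap of the days (-0.11, adjusted p = 0.095). The peptide genes NPY and GAL rose from medians of 105 and 39.7 FPKM to 638 and 233 FPKM. Voltage-gated ion channel genes had 21 rises and 3 falls among 24 tested (median 1.06). CACNA2D3, a calcium channel subunit, lay between 0.0197 and 0.143 FPKM at day 0 and between 10.7 and 17.2 FPKM at day 18 (3.67, SE 0.09). The 3 that fell were KCNH2, SCN9A and CACNB2, a potassium channel, a sodium channel and a calcium channel subunit, at log2 differences of -0.51, -0.38 and -0.14.

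Transmitter genes moved in both directions. Of 10 tested noradrenergic genes 7 rose and 2 fell (median log2 difference 0.77). DBH, which turns dopamine into noradrenaline, rose from between 56.2 and 69.2 FPKM to between 288 and 465 FPKM (2.68, SE 0.09, limma adjusted p = 1.4e-11). The vesicular transporters SLC18A1 and SLC18A2 rose at log2 differences of 2.18 and 2.32, whereas SLC6A2, the noradrenaline reuptake transporter, fell from a median of 49.9 to 10.2 FPKM (-2.24, SE 0.05). TH, the first enzyme of the pathway, was below the level for testing, with medians of 0.0182 FPKM at day 0 and 0.679 FPKM at day 18. Of 12 tested cholinergic genes 9 rose and 3 fell (median 0.94). ACHE, acetylcholinesterase, rose from between 0.709 and 1.45 FPKM to between 20.7 and 31.7 FPKM (3.81, SE 0.10), and the muscarinic receptor CHRM3 from a median of 4.57 to 30.9 FPKM. SLC5A7, the choline transporter, fell from 19.6 to 2.74 FPKM (-2.48, SE 0.05). The muscarinic receptors CHRM2 and CHRM1 also fell, at -1.04 (SE 0.08) and -0.48 (SE 0.08).

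Receptors for growth factors moved in both directions, 7 up and 3 down among 11 tested (median log2 difference 0.46). NTRK2, the receptor of the BDNF in the medium, rose from between 6.37 and 7.88 FPKM to between 84 and 87.6 FPKM (3.40, SE 0.04, limma adjusted p = 1.5e-15). NTRK3, the receptor of neurotrophin-3, fell from a median of 1.9 to 0.774 FPKM (-0.70, SE 0.09). RET and ALK, receptor tyrosine kinases of sympathetic neuroblasts, rose from medians of 85.9 and 36.4 FPKM to 304 and 80.6 FPKM. Sympathetic lineage transcription factors had 10 rises and 8 falls among 18 (median 0.07). GATA2, a zinc-finger factor of sympathetic precursors, fell from between 95.9 and 105 FPKM to between 21.9 and 28.3 FPKM (-1.92, SE 0.05). PHOX2A, a homeobox factor of noradrenergic neurons, rose from a median of 96.3 to 156 FPKM, and HAND2 was nearly level at 285 and 295 FPKM although it passed (0.07, adjusted p = 0.026).

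**Figure D3:**
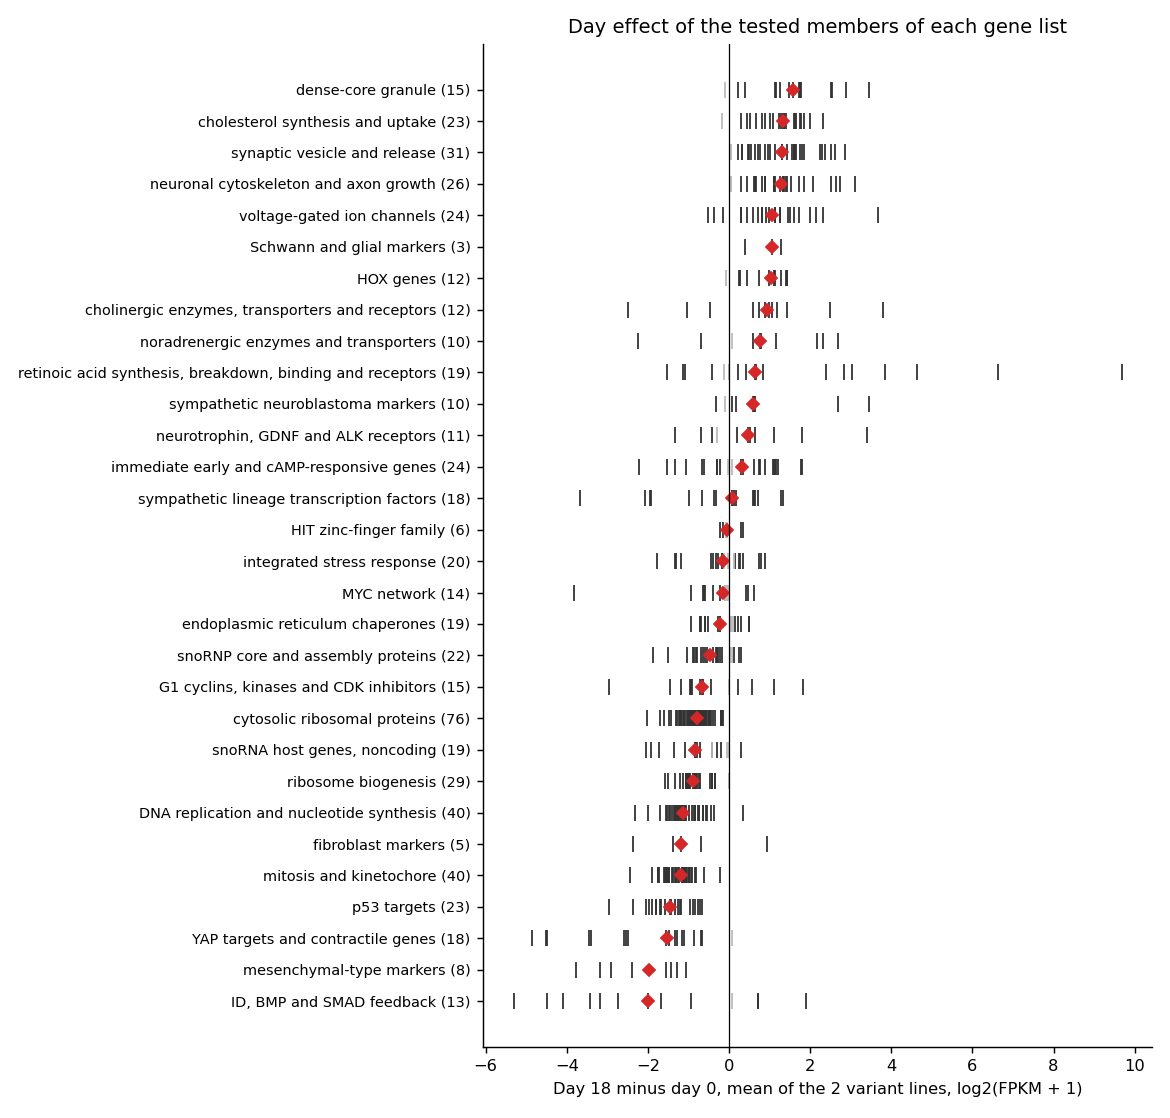
Log2 difference between day 18 and day 0, mean of the 2 variant lines on the log2(FPKM + 1) scale, for each tested member of the gene lists with at least 3 tested members; the number tested follows each list's name. Black ticks are genes past the threshold, grey ticks are genes that did not pass and red diamonds are list medians, which run from 1.59 for dense-core granules to -1.99 for ID, BMP and SMAD feedback.

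Cell division genes fell throughout. Of 40 genes for mitosis and the kinetochore 40 fell and 0 rose (median log2 difference -1.19), and of 40 for DNA replication and nucleotide synthesis 39 fell and 1 rose (-1.14). CDC20, an activator of the anaphase-promoting complex, fell from between 24.4 and 28 FPKM to between 3.21 and 4.89 FPKM (-2.44, SE 0.07, limma adjusted p = 3.3e-12). TYMS, thymidylate synthase, fell from between 38.5 and 44.6 FPKM to between 6.75 and 9.29 FPKM (-2.31, SE 0.06, adjusted p = 8.9e-13). The days did not overlap for either gene, and mRNA of both was still measured at day 18. MKI67, a marker of cycling cells, fell from a median of 48.3 to 22 FPKM. The gene that rose was GINS4, part of the replicative helicase, from 5.51 to 7.22 FPKM. In bulk RNA, fewer cells of a type and less RNA per cell cannot be told apart.

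Promoters of these lists are shown because their sequence elements differ. The cell cycle homology region TTTGAA was in the window of 25 of 34 mitosis genes (73.5%). Its share was 18.2% among all genes with a promoter and 13.8% among the tested genes. An E2F element (TTTCCCGC, TTTCGCGC, TTTGCCGC or TTTGGCGC) was in the window of 22 of 36 replication genes (61.1%). Its share was 3.99% among all genes with a promoter and 6.53% among the tested genes. Both were searched on both strands, and the list member with the motif and the largest fall is printed for each, with the matches in capitals.
CDC20: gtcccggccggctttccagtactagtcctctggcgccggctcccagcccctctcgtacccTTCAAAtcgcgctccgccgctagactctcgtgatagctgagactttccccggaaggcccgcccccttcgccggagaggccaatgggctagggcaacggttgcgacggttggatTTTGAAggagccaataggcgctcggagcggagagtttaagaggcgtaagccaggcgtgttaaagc
TYMS: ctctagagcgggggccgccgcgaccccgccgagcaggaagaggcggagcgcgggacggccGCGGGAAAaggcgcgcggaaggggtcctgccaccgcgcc
The CDC20 window is chr1:43358743-43358980 and the TYMS window chr18:657554-657652, both on the forward strand. TYMS overlaps TYMSOS and ENOSF1 on the other strand.

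Regulators around the cell cycle also moved. Among G1 cyclins, kinases and inhibitors 4 rose and 10 fell of 15 tested (median log2 difference -0.67). CCND1, the G1 cyclin D1, fell from a median of 170 to 61.6 FPKM, and CDKN2D, an inhibitor of CDK4 and CDK6, rose from 3.92 to 17.4 FPKM (1.82, SE 0.10). All 23 tested p53 targets fell and 0 rose (median -1.46). CDKN1A, the p21 inhibitor, fell from between 116 and 153 FPKM to between 12.9 and 20.1 FPKM (-2.97, SE 0.07, limma adjusted p = 2.6e-13), and MDM2, the ligase that degrades p53, from a median of 74.8 to 18 FPKM. MYC fell from between 19.6 and 22.3 FPKM to between 0.343 and 0.846 FPKM (-3.82, SE 0.07), while its partner MAX was at 32.2 and 30.2 FPKM and did not pass (adjusted p = 0.39). The MYC network as a whole had 3 rises and 7 falls among 14 (median -0.16), a median that became 0.02 with small RNA genes left out and the rest rescaled.

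BMP signalling and its feedback held some of the largest falls. Of 13 tested genes 9 fell and 3 rose (median log2 difference -1.99). GREM1, a secreted BMP antagonist, stood at 42, 40.3 and 39 FPKM in C14R and 51.2, 46 and 44 FPKM in the deletion line at day 0, and at no more than 0.224 FPKM in any library of day 18 (-5.31, SE 0.05, limma adjusted p = 2e-16). ID1, an inhibitor of neurogenic transcription factors and a BMP target, stood at 34.3, 45 and 25.9 FPKM in C14R and 57.6, 48.7 and 48.2 FPKM in the deletion line at day 0, and between 0.416 and 1.67 FPKM at day 18 (-4.48, SE 0.14). At day 0 both genes were higher in every deletion library than in every C14R library. ID2, ID3 and ID4 fell at log2 differences of -3.42, -4.10 and -2.73. The ligand BMP7 rose from a median of 0.429 to 4.18 FPKM, and the receptor BMPR2 from 18.3 to 30.2 FPKM.

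Genes of ribosome production fell in both lines. Of 29 ribosome biogenesis genes 28 fell and 0 rose (median log2 difference -0.89), with NPM1, a nucleolar chaperone, at a median of 652 FPKM at day 0 and 343 FPKM at day 18. All 76 tested cytosolic ribosomal protein genes fell (median -0.79), for example RPLP0 from between 1162 and 1241 FPKM to between 305 and 408 FPKM. Under quantile normalization this list had 10 rises and 56 falls with a median of -0.31. Of 22 snoRNP core and assembly genes, the group to which ZNHIT3 belongs, 17 fell and 3 rose (median -0.47). FBL, the fibrillarin that methylates ribosomal RNA, fell from between 88.9 and 98 FPKM to between 23 and 26.8 FPKM (-1.88, SE 0.04, limma adjusted p = 5.2e-14), and NOP56 and NOP58, its partners in box C/D particles, fell at -0.81 and -0.79. The 3 that rose were ZNHIT3, in which C14R alone passed, and RPAP3 and HSP90AB1, parts of the chaperone system for snoRNP assembly, at 0.25 and 0.12. NUFIP1, a box C/D assembly factor, was at 8.67 and 8.92 FPKM and did not pass (adjusted p = 0.49). Among 19 noncoding snoRNA host genes 15 fell and 1 rose (median -0.83).

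Cholesterol synthesis and uptake moved the other way. Of 23 tested genes 22 rose and 0 fell (median log2 difference 1.34). HMGCS1, an early enzyme of the pathway, rose from between 14.3 and 16.9 FPKM to between 77.1 and 80.8 FPKM (2.31, SE 0.03, limma adjusted p = 3.8e-15). SQLE, which oxidizes squalene, rose from a median of 20.8 to 54.5 FPKM, and INSIG1, a feedback regulator of the pathway, from 9.05 to 33.5 FPKM. PMVK did not pass, at 22.4 and 21.1 FPKM (adjusted p = 0.061). Endoplasmic reticulum chaperones had 5 rises and 10 falls among 19 (median -0.21), with HSPA5, the chaperone BiP, at 106 and 64.8 FPKM. With small RNA genes left out that list had 9 rises and 8 falls (median -0.015), and quantile normalization gave a median of -0.048. The integrated stress response list had 7 rises and 10 falls among 20 (median -0.15, and 0.04 with small RNA genes left out). Immediate early and cyclic AMP-responsive genes were split, 13 up and 9 down among 24 (median 0.32). CREM and PDE10A, a cyclic AMP-responsive factor and a phosphodiesterase, rose at 1.21 and 1.81, and FOSL1 and JUNB, subunits of AP-1, fell at -2.21 and -1.34.

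The list of YAP targets and contractile genes held 3 of the 12 largest falls, TAGLN, ACTA2 and ANKRD1. Of 18 tested YAP targets and contractile genes 17 fell and 0 rose (median log2 difference -1.53). TAGLN, an actin-binding protein of smooth muscle, stood at 136, 158 and 135 FPKM in C14R and 198, 173 and 179 FPKM in the deletion line at day 0, and between 3.32 and 5.98 FPKM at day 18 (-4.87, SE 0.10, limma adjusted p = 6.8e-14). ACTA2, smooth muscle alpha-actin, fell from between 51.3 and 78.3 FPKM to between 1.33 and 2.64 FPKM (-4.51, SE 0.09); it overlaps FAS, which also fell, on the other strand. ACTG2, enteric gamma-actin, is also among the 12 largest falls but is not on the list. At day 0 it stood at 18.8, 18.7 and 18.4 FPKM in C14R and 28.5, 24.6 and 26.8 FPKM in the deletion line. It was listed at 0 in 5 day 18 libraries and at 0.118 FPKM in the sixth (limma adjusted p = 1.1e-15). For TAGLN and ACTG2 every deletion library of day 0 lay above every C14R library of day 0. The ACTG2 promoter is shown because it alone among the 10 promoters of the largest falls held a match to the CArG box, the element of serum response factor, found in 1.6% of all genes with a promoter and in 3 of 15 of the list (ACTN1, CNN2 and FLNA).
ACTG2: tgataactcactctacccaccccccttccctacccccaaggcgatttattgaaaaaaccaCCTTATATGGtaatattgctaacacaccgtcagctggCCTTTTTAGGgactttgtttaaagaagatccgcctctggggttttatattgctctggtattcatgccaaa
The window is chr2:73892838-73893004 on the forward strand, with the matches in capitals.

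Other genes among the 12 largest falls follow. S100A10, a protein of the S100 family that binds annexin A2, fell from between 35.4 and 41.9 FPKM to between 0.0648 and 0.253 FPKM (log2 difference -5.17, SE 0.06, limma adjusted p = 7.2e-16). S100A11, a calcium-binding protein of that family, fell at -4.93 (SE 0.07). The sulfotransferase SULT1B1 stood between 24.5 and 30.3 FPKM at day 0 and was listed at 0 in all 6 libraries of day 18 (adjusted p = 4.5e-16), while SULT1E1, the estrogen sulfotransferase, fell from between 19.1 and 20.8 FPKM to at most 0.179 FPKM. ANKRD1, a YAP target, was listed at 0 in 4 day 18 libraries after 17.7 to 30.2 FPKM at day 0. PRSS23, a secreted serine protease, fell at -4.58 (SE 0.07).

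Markers of other cell types moved with the day. All 8 tested mesenchymal-type markers fell, and the sum of the 9 listed went from 504.7 to 519.2 FPKM at day 0 to 111.7 to 120.4 FPKM at day 18 in C14R. In the deletion line it went from 534.3 to 555.3 FPKM to 110.2 to 118.6 FPKM, so that at day 0 every deletion library lay above every C14R library. Neuroblastoma cells can take such a state themselves, and the part of these markers in the contractile and BMP groups was not tested. Of the sympathetic markers 8 of 10 tested rose and 1 fell, and the sum of the 11 rose from between 1478 and 1604 FPKM to between 3127 and 3335 FPKM. Fibroblast markers were summed at 115.1 to 121 FPKM at day 0 and 95.25 to 102 FPKM at day 18, with DCN, LUM, PDGFRB and THY1 lower and PDGFRA higher. The 3 tested Schwann and glial markers rose, with sums of the 7 listed from 3.36 to 5.01 FPKM at day 0 and 8.95 to 10.9 FPKM at day 18. FOXD3 was listed at 0 in all 6 day 0 libraries, and SOX10 lay at 0.111 to 0.477 FPKM. Endothelial markers summed to at most 0.602 FPKM, with PECAM1 and CDH5 at 0 in some libraries. CD3E was listed at 0 at day 18, PTPRC lay at no more than 0.12 FPKM, and of the immune markers only CD68 was high enough to test, at medians of 5.88 and 1.47 FPKM. Of the markers that define the labelled line, PHOX2A, HAND2 and DBH were present in all 12 libraries and TH was close to 0.

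The day effects of the 2 lines lay close together. Across the genes tested the log2 differences of the 2 lines had a Pearson correlation of 0.9715, given as a description, since genes are not independent replicates. The median of the difference of day effects, C14R minus deletion, was -0.01, and its median size was 0.08. Of 13775 genes, 1 passed the threshold (0.00726%), and 777 (5.64%) had an unadjusted p under 0.05. That second count was 1227 (8.91%) without C14R replicate 1 of day 18, the library apart on the second component, and 1451 with array weights, which give less weight to libraries that vary more. The 95% interval of the difference lay within 1 of 0 for 13518 genes (98.1%) and within 0.5 for 10931 genes (79.4%). Of the 1940 genes with a mean log2 change of at least 1, 1872 had an interval within 1.

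STK19, a gene of the MHC class III region at chr6:31971091-31982821, was the gene that passed. It stood at 2.4, 2.9 and 1.95 FPKM in C14R at day 0 and was listed at 0 in all 3 C14R libraries of day 18. In the deletion line it was listed at 0 in all 3 libraries of day 0 and stood at 3.83, 3.24 and 3.65 FPKM at day 18. Within each line the days did not overlap, and the lines moved in opposite directions (limma adjusted p = 3.7e-08), and their differences on the pseudocount scale are no fold, since each rests on a group at 0. The gene overlaps DXO and C4A in GENCODE 29, and an exact 0 in this table can be a failed estimate. A whole variant group at 0 with a mean of at least 1 FPKM in another was seen in 74 genes, and in 7 of these the day means of the lines moved in opposite directions.

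The other 9 of the 10 genes with the smallest unadjusted p did not pass and are given as values. SNORA74B, a box H/ACA snoRNA within ATP6V0E1, stood at 7.86, 26 and 38.7 FPKM in C14R at day 0, at 0 in C14R at day 18, and between 8.31 and 18.9 FPKM in the deletion line on both days (limma adjusted p = 0.054). BOLA3, an iron-sulfur cluster factor of mitochondria, went from 22.7, 28.2 and 24.2 to 20, 20 and 19.2 FPKM in C14R, and from 35.7, 33 and 36.6 to 16.5, 18.8 and 16.8 FPKM in the deletion line (difference of the log2 day effects 0.65, adjusted p = 0.18). VIM, vimentin, went from 528, 562 and 528 to 54.3, 52.7 and 55.2 FPKM in C14R, and from 652, 617 and 613 to 51, 48.7 and 48.8 FPKM in the deletion line (0.34, adjusted p = 0.18). For BOLA3 and VIM the deletion line was the higher one at day 0 and the lower one at day 18 in every library. APOM, an apolipoprotein gene that overlaps BAG6, went from 1.3, 1.27 and 0.767 to 2.43, 1.84 and 2.14 FPKM in C14R and from 2.51, 2.71 and 2.22 to 2.05, 1.54 and 1.34 FPKM in the deletion line (0.98, adjusted p = 0.22). LGALS3, TFPI2 and GTF2E2 had differences of 0.47, 0.29 and 0.36, and FSTL5 one of -0.51, with adjusted p-values of 0.18 to 0.22.

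**Figure D4:**
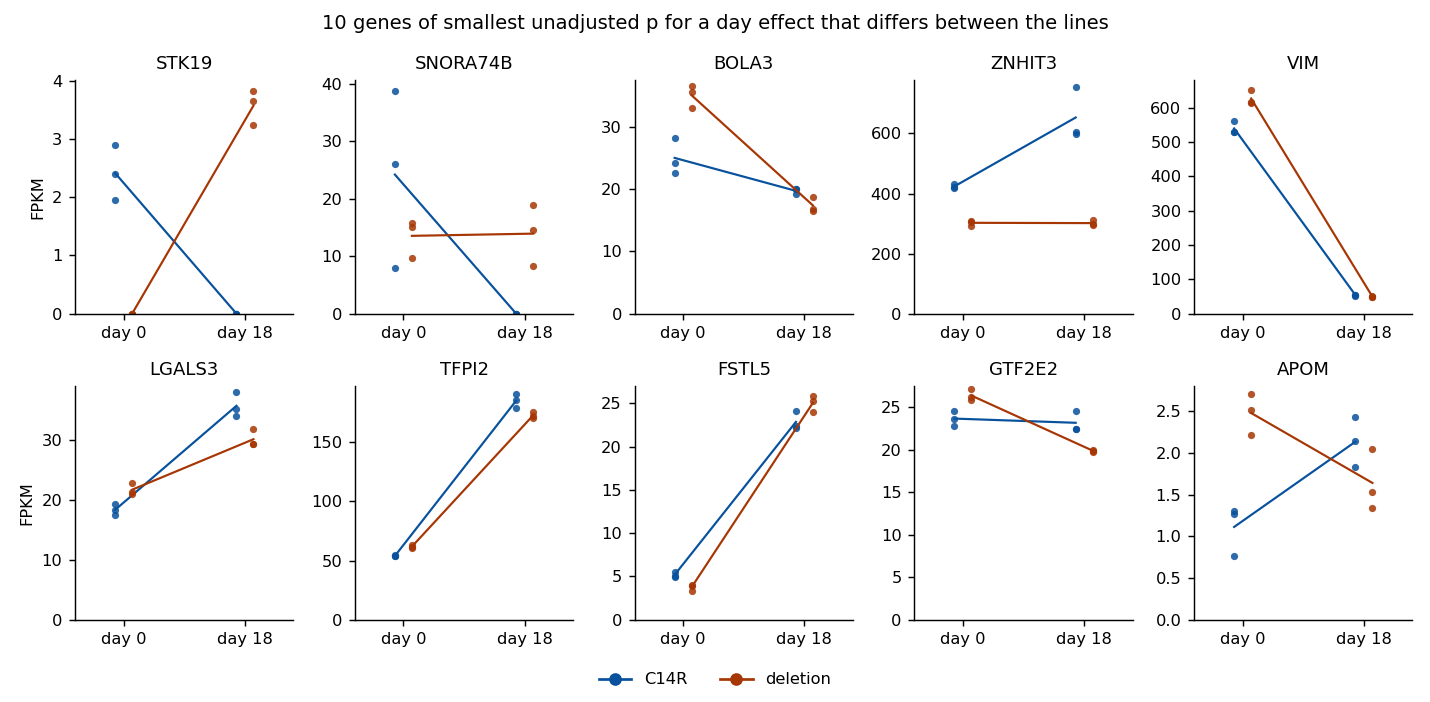
FPKM at day 0 and day 18 in C14R (blue) and the deletion line (brown) for the 10 genes with the smallest unadjusted p for a day effect that differs between the lines; points are libraries and lines join the means of 3. Only STK19 passed the adjusted threshold, and ZNHIT3 stayed at 292 to 313 FPKM in the deletion line while C14R went from at most 432 to at least 600 FPKM.

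In 5 genes (0.0363%) both lines passed with opposite signs. These were APOM and STK19, given above, and 3 others. ARRB2, a beta-arrestin, had -0.23 in C14R and 0.19 in the deletion line. SLC35B3, a member of the nucleotide sugar transporter family, had -0.17 and 0.21, and the snoRNA SNORA53 -0.46 and 0.47. For all but STK19 the test of the difference itself did not pass.

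The lines were also compared within gene lists, without a test of a list. Of the 18 tested YAP targets and contractile genes 17 had a higher day effect in C14R than in the deletion line. Over all genes tested 6606 of 13775 did, and between 5136 and 7260 under the other scalings. The list had medians of -1.44 in C14R and -1.61 in the deletion line. Of its genes 9 had an unadjusted p under 0.05 for a higher day effect in C14R, against 2.95% of all genes. None passed after adjustment, and 0 had an unadjusted p under 0.05 in the other direction (all genes 2.69%). CYR61, a matricellular YAP target, fell at -3.06 in C14R and -3.74 in the deletion line, ACTA2 at -4.24 and -4.79, and TAGLN at -4.68 and -5.06. The lines were further apart before differentiation than after: 10 of the 18 were lower in C14R at day 0 at an unadjusted p under 0.05 (all genes 4.62%; median log2 difference -0.22), and at day 18 the list had 3 higher (all genes 4.07%) and 1 lower (5.09%; median 0.03). Leaving out single libraries or changing the scaling left between 6 and 10 of the list at an unadjusted p under 0.05. This list was looked at in this way after its values were seen. Some lists went the opposite way. Of 31 genes for synaptic vesicles and release 26 had a lower day effect in C14R. Of these 6 had an unadjusted p under 0.05, against 0 in the other direction. In C14R 7 of the 31 were higher at day 0 at that level (579 of 13775 over all genes). Under the other scalings 24 to 28 were lower, 4 to 8 of them at that level. Of 18 sympathetic lineage transcription factors 15 had a lower day effect in C14R, 1 of them at that level. At day 0, 4 of the 18 were higher in C14R at that level and 0 lower. Under the other scalings 14 to 16 had a lower day effect, 1 to 3 of them at that level. The dense-core granule list was split: of 15 tested genes 8 had a higher day effect in C14R and 7 a lower one. Of these 3 and 2 had an unadjusted p under 0.05. At day 0, however, 7 of the 15 were lower in C14R at that level (all genes 4.62%) and 1 was higher, the direction of the contractile list. Other lists had a pattern like the contractile one. Of 23 p53 targets 22 had a higher day effect in C14R, 1 of them at an unadjusted p under 0.05. In C14R 9 of the 23 were lower at day 0 at that level. Under the other scalings 18 to 22 were higher, 0 or 1 of them at that level. Of 76 cytosolic ribosomal protein genes 58 had a higher day effect in C14R. Of these 8 had an unadjusted p under 0.05, against 0 in the other direction. In C14R 10 of the 76 were lower at day 0 at that level. Under the other scalings 44 to 62 were higher, 2 to 12 of them at that level, so this pattern depends on the scaling. The summed mesenchymal-type markers also differed by line at day 0, at 504.7 to 519.2 FPKM in C14R and 534.3 to 555.3 FPKM in the deletion line, without overlap, and overlapped at day 18. Their part in the difference of the contractile list was not tested, and YAP1 and WWTR1 are on both lists.

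**Figure D5:**
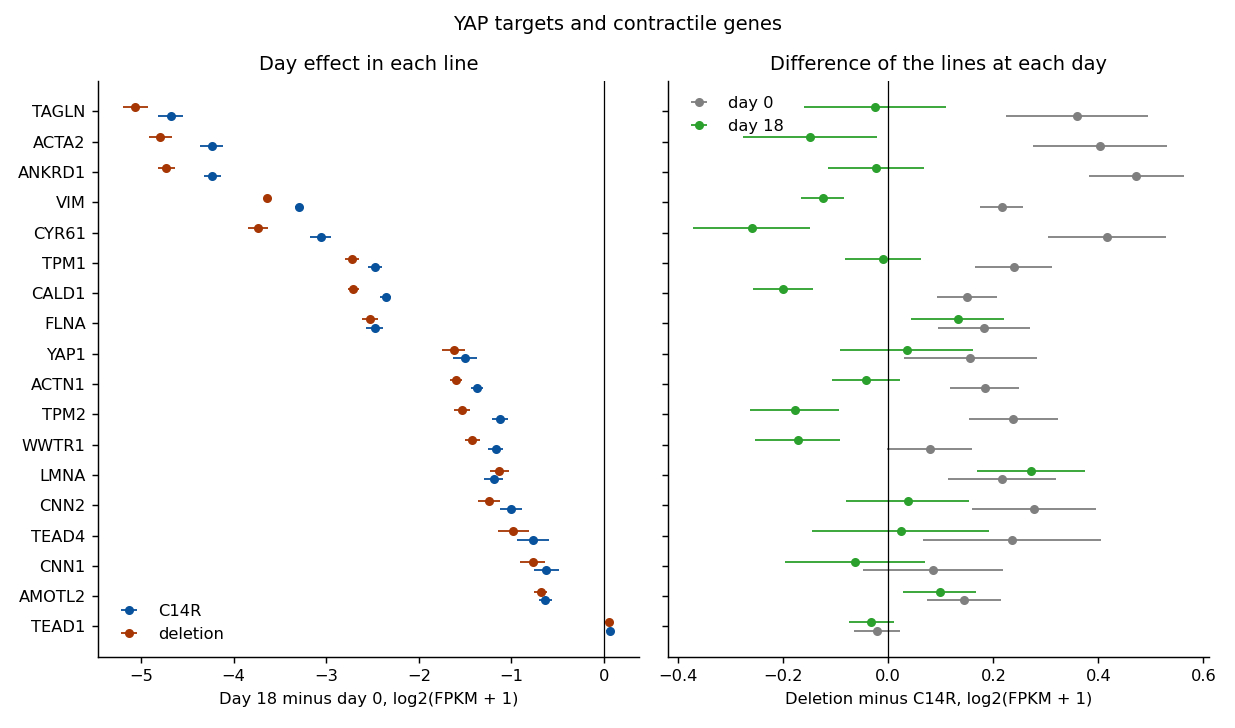
Left, log2 difference between day 18 and day 0 in C14R (blue) and the deletion line (brown) for 18 YAP targets and contractile genes; right, log2 difference deletion minus C14R at day 0 (grey) and day 18 (green), all on the log2(FPKM + 1) scale with bars of 1 SE from the fit. In 17 of 18 genes, all but LMNA, the C14R point lies to the right of the deletion point, and 10 of the 18 were lower in C14R at day 0 at an unadjusted p under 0.05.

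Against the WT line, the mean day effect of the 2 variant lines differed for 2 of 13785 genes (0.0145%) in a fit of all 18 libraries, and 925 (6.71%) had an unadjusted p under 0.05. ZNHIT3 in WT stood at 542, 541 and 531 FPKM at day 0 and at 1193, 1164 and 1103 FPKM at day 18, above every variant library of the same day. Its log2 day effect was 1.10 in WT (SE 0.07) and 0.30 in the variant lines, a difference of -0.79 (SE 0.08, limma adjusted p = 0.00017). STK19 in WT stood at 3.09, 2.8 and 3.19 FPKM at day 0 and at 0.313, 0 and 0 FPKM at day 18, the direction seen in C14R (adjusted p of the difference 7.5e-07). For the other genes no difference from WT passed, which does not show that the lines differentiated alike.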

How the data were processed

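The table used holds FPKM for 26372 gene symbols, 1 column per library, as the authors deposited it. Per the submitters' processing notes, TopHat2, STAR and Cufflinks 2.2.1 and the build hg38 were used, with no role or order given. The annotation, the use of strand and any further scaling are not given in the sources used here. Columns were matched to samples by title, and 0 columns lacked a sample. Log2(FPKM + 1) values of the 12 variant libraries were fitted with limma 3.58.1 in R 4.3.3 (means of 4 groups, empirical Bayes with a variance trend), for 13775 genes with a mean FPKM of at least 1. Adjustment was by Benjamini and Hochberg over all genes tested, with a threshold of 0.05. The text names ZNHIT3, the 12 largest rises and 12 largest falls with separate days (small RNA genes left out), all genes past the threshold for a difference between the lines, the 10 of smallest unadjusted p, those past the threshold against WT, and members of 32 gene lists; 1 of the 12 falls is not reported here. Members, lists and tests were chosen with earlier results of these data known. Alternatives were other pseudocounts, filters, scalings, a replicate block, array weights and each library left out. The procedure was run on simulated data with independent normal noise and planted differences. Those data did not model differing depth, the share of small RNA or an outlying library, so they do not test these limits. Gene positions are from GENCODE 29, in which all 34 named genes were matched by symbol, and promoters are from RefSeq. Absolute depth is unknown, since the deposited FPKM give no counts.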

Additional observations from a re-analysis of the deposited data

Results flagged for a closer look

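The day effect of STK19 differed between C14R and the deletion line by -3.95 on the log2(FPKM + 1) scale (limma adjusted p = 3.7e-08), as a test of the difference itself. This value rests on groups listed at 0 and depends on the pseudocount, so it is no bound on a fold. STK19 also differed between the mean of the variant lines and WT, by 2.09 (limma adjusted p = 7.5e-07). That mean joins opposite day effects, -1.76 in C14R and 2.19 in the deletion line, and WT had -1.88. ZNHIT3 differed between the mean of the variant lines and WT by -0.79 (limma adjusted p = 0.00017). No group has 4 or more libraries, so single libraries were not tested as outliers.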

How the results depend on the processing

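Of 749 values of named genes under the alternatives, 736 kept their direction and their side of the threshold and 13 newly passed it. Of 146 counts of genes 17 moved by over 1.5 times. Of 652 list medians 71 moved by more than the spread between libraries and 3 changed sign. For ID, BMP and SMAD feedback the median went from -1.99 to -3.58 with a pseudocount of 0.1, and without the filter on low values those of the HOX and retinoic acid lists went from 1.04 to 0.31 and from 0.63 to 0.16. With a log2 difference of at least 1 required as well, the genes changed numbered 1940 for the mean of the lines, 1917 in C14R, 1989 in the deletion line, 1714 in both, and 1 against WT. Genes whose day effect differed between the lines numbered 2 with a pseudocount of 0.1 (STK19 and SNORA74B), 6 with array weights, 7 with all 18 libraries in one fit, and 0 in limma when genes under a mean FPKM of 5 were left out (553 with an unadjusted p under 0.05). STK19 is below that filter. Leaving out single libraries gave 1 to 3, and STK19 was among them each time: 3 without C14R day 0 replicate 1 or deletion day 18 replicate 3, and 2 without C14R day 0 replicate 2 or 3, C14R day 18 replicate 2 or deletion day 0 replicate 1. Against WT, array weights gave 5 and that filter gave 1.

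The day effect of ZNHIT3 in the deletion line was 0.22 under quantile normalization (limma adjusted p = 0.031) and also 0.22 with small RNA genes left out (limma adjusted p = 0.017), against -0.00 as deposited, and ran from -0.031 to 0.013 with single libraries left out. Its difference between the lines passed with array weights (0.58, limma adjusted p = 0.036) and with all 18 libraries in one fit (0.62, limma adjusted p = 0.021), and without C14R day 18 replicate 2 (0.51, limma adjusted p = 0.013). With single libraries left out it ran from 0.51 to 0.68. The cause was not tested. With small RNA genes left out, the medians of the MYC network, the integrated stress response and the HIT zinc-finger family turned positive, at 0.019, 0.037 and 0.12, while the median over all genes rose from 0.02 to 0.20.

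Replicate numbers did not pair the samples: deviations of libraries with the same number correlated between -0.0998 and 0.166, and 2 of 6 libraries correlated best with their own number. With the replicate block, the mean day effect passed for 10958 genes and the difference between the lines for 1. With 3 libraries a group and FPKM without counts, differences of genes near 0 are limited by depth and cannot be given an interval.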
